A study of Saccharomyces cerevisiae with 180 samples.

Results

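Ergosterol, the main sterol of yeast membranes, is made from acetyl-CoA through mevalonate, farnesyl diphosphate, squalene and lanosterol. The transcripts described here are those of 30 genes, listed by symbol, of the 5605 genes that the arrays measured. They were taken as a list of pathway genes, with no cut on their values. The genes and tests were chosen with earlier results of these data known. Each of the 30 genes was measured by 1 probe. By role they comprised 9 genes of the early mevalonate steps, 3 of the squalene and lanosterol steps, 11 of the late sterol steps, 3 of electron carriers, 2 of transcriptional regulators and 2 of sterol esterification.

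The early steps join acetyl-CoA units into mevalonate and build farnesyl diphosphate, which also feeds ubiquinone, dolichol, heme A and protein prenylation. The late steps turn lanosterol into ergosterol by demethylation, reduction, isomerisation and desaturation, and several of them use oxygen, heme or iron. In yeast the paralogous activators Upc2 and Ecm22 bind sterol regulatory elements in promoters of the pathway, and the heme-responsive activator Hap1 links its transcription to heme and oxygen.

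RNA from 90 cultures of Saccharomyces cerevisiae was compared on 2-colour arrays with 1 reference pool of RNA from BY4716, a laboratory strain isogenic to S288c. The cultures were 2 independent cultures of BY4716, 2 of RM11, a haploid derivative of a wild vineyard isolate, and 86 haploid first-generation segregants of a cross of BY4716 with RM11-1a, each measured as 1 culture. Each culture was hybridised on 2 arrays with exchanged dyes, and their mean was taken as 1 replicate. All values are log2 ratios of a culture over the pool, so that BY4716 lies near 0 by construction and a value of 1 stands for a doubling. The labels give no treatment, and growth conditions are not given in the sources used here.

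Strain markers set the direction of the ratios. LEU2 stood at -5.84 and -5.51 and URA3 at -5.22 and -4.10 in the RM11 cultures, and both lay between -0.14 and -0.01 in BY4716. STE2, the receptor of mating type a cells, stood at 5.17 and 5.86 in RM11, whereas STE3, that of mating type alpha cells, stood at -6.46 and -6.12, so the parents also differed in mating type and in auxotrophies. An array held between 3769 and 6570 values. Over the segregants, the values of a pathway gene on both dye orientations correlated with a median Pearson r of 0.85, from 0.49 for MVD1 to 0.96 for ERG5.

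The first comparison asked which steps of the pathway differed between the parents. Pathway transcripts were mostly higher in RM11. Of the 24 pathway genes that had values on each of the 8 parental arrays, 16 were higher in RM11 and 1 was lower, at a Benjamini-Hochberg adjusted p under 0.05 from limma over all 3256 genes tested. Among all genes tested, 18.2% were higher and 8.54% lower in RM11. The median difference was 0.52 for the pathway genes and 0.10 for all genes. The counts were 6 of 7 early mevalonate genes (median difference 0.51), 2 of 3 squalene and lanosterol genes (0.61), 6 of 10 late sterol genes (0.64) and 2 of 3 electron carriers.

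**Figure D1:**
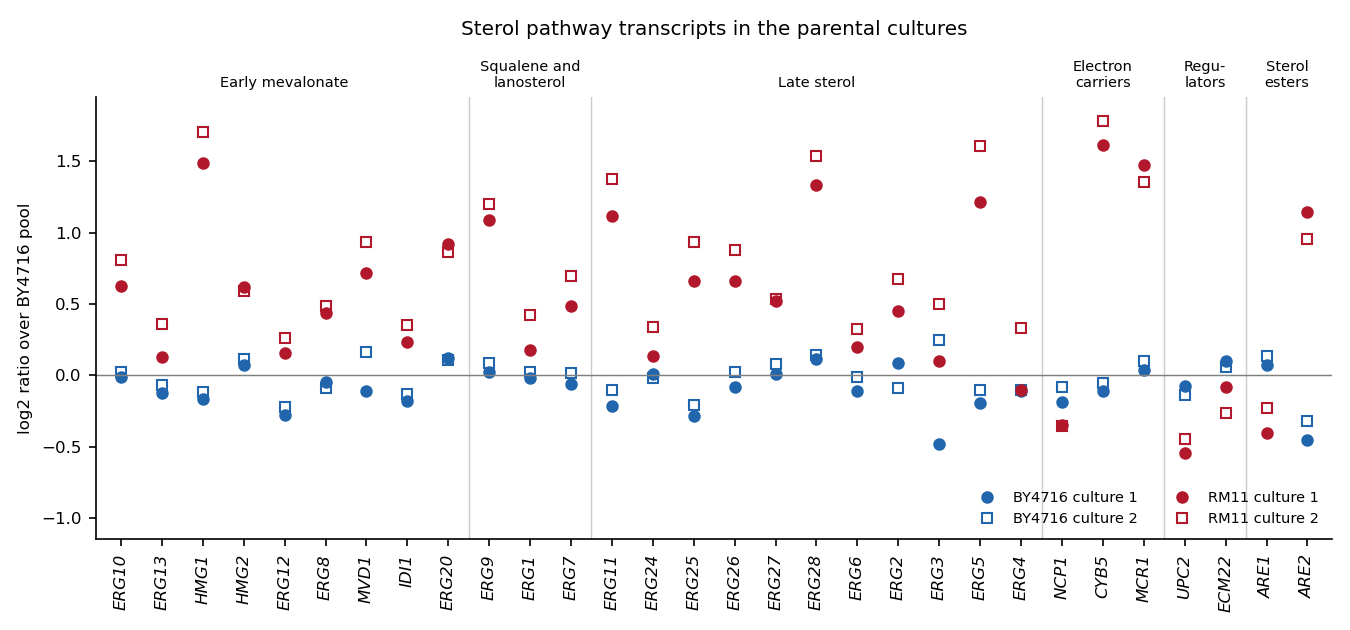
Log2 ratio over the BY4716 pool (vertical axis) of the 30 pathway transcripts (horizontal axis, by pathway step) in each of the 2 BY4716 and 2 RM11 cultures, each point the mean of the arrays of 1 culture. The BY4716 points lie between -0.48 and 0.24, and the RM11 points of CYB5, the highest, lie at 1.61 and 1.78.

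Among early genes the largest tested difference was that of ERG20 (YJL167W), which encodes farnesyl pyrophosphate synthase. Its ratios were 0.12 and 0.10 in the BY4716 cultures and 0.92 and 0.87 in the RM11 cultures, a difference of 0.78 (SE 0.08, limma adjusted p = 0.00224). ERG10 (YPL028W), the acetoacetyl-CoA thiolase that opens the pathway, stood at -0.01 and 0.02 against 0.62 and 0.81, a difference of 0.71 (SE 0.10). In both genes each RM11 culture lay above each BY4716 culture by several times the gap between cultures of a strain. ERG8, the phosphomevalonate kinase, was higher by 0.53 (SE 0.08), HMG2, the minor HMG-CoA reductase isozyme, by 0.51 (SE 0.08), ERG12, the mevalonate kinase, by 0.46 (SE 0.08) and IDI1, the isopentenyl diphosphate isomerase, by 0.45 (SE 0.09). The ERG12 difference lay mostly on Cy3-titled arrays, with -0.63 and -0.60 in BY4716 against 0.14 and 0.21 in RM11. On Cy5-titled arrays ERG12 stood at 0.08 and 0.16 against 0.17 and 0.32. With Cy5-titled arrays alone it was not called, beside 21.8% of all genes called. ERG13, the HMG-CoA synthase, differed by 0.34 (SE 0.11) and missed the threshold (limma adjusted p = 0.0689).

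HMG1 (YML075C), the main HMG-CoA reductase isozyme, lacked a value on 2 of the 8 parental arrays and was outside that test. Its ratios were -0.16 and -0.12 in BY4716 and 1.49 and 1.71 in RM11, the widest gap of any early gene. In a fit that took genes with at least 1 array per parental culture, the HMG1 difference was 1.74 (SE 0.11, limma adjusted p = 0.00124). MVD1, the mevalonate pyrophosphate decarboxylase, was higher by 0.80 in that fit (limma adjusted p = 0.0224).

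At the squalene and lanosterol steps, ERG9 (YHR190W), the squalene synthase that commits farnesyl diphosphate to sterols, stood at 0.03 and 0.08 in BY4716 and at 1.09 and 1.20 in RM11. The difference was 1.09 (SE 0.09, limma adjusted p = 0.000988), a fold of 2.13. ERG7, the lanosterol synthase, was higher by 0.61 (SE 0.10). ERG1, the squalene epoxidase between them, differed by 0.30 (SE 0.11) and did not pass (limma adjusted p = 0.0979).

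The late steps held both large and undetected differences. ERG5 (YMR015C), a sterol desaturase, stood at -0.19 and -0.10 in BY4716 and at 1.21 and 1.61 in RM11, a difference of 1.56 (SE 0.15, limma adjusted p = 0.00186). ERG11 (YHR007C), the lanosterol demethylase that azole drugs inhibit, stood at -0.21 and -0.10 against 1.11 and 1.38, a difference of 1.41 (SE 0.12, limma adjusted p = 0.00115). ERG28 (YER044C), a scaffold that holds the demethylation enzymes together, stood at 0.12 and 0.14 against 1.33 and 1.54, a difference of 1.31 (SE 0.10, limma adjusted p = 0.000932).

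In these 3 genes the BY4716 and RM11 cultures were clearly apart, although the RM11 cultures differed from each other more than the BY4716 cultures did. The enzymes that work with Erg28 were also higher in RM11: ERG25, the methyl sterol oxidase, by 1.04 (SE 0.12), ERG26, the sterol decarboxylase, by 0.80 (SE 0.11) and ERG27, the keto sterol reductase, by 0.48 (SE 0.08). The 4 late genes that did not pass were ERG6, the sterol methyltransferase, with a difference of 0.32 (SE 0.09, limma adjusted p = 0.0536), ERG24, a sterol reductase, with 0.24 (SE 0.10), ERG3, a desaturase, with 0.42 (SE 0.26), and ERG4, the last reductase of the pathway, with 0.22 (SE 0.15). For ERG3 and ERG4 the BY4716 and RM11 cultures overlapped, with ERG3 at -0.48 and 0.24 in BY4716 and at 0.10 and 0.50 in RM11. ERG2, the sterol isomerase, was outside the test and was higher by 0.56 in the fit with fewer arrays required (limma adjusted p = 0.0393).

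The electron carriers differed among themselves. CYB5 (YNL111C), the cytochrome that passes electrons to sterol and lipid desaturases, showed the largest tested difference of the pathway, with -0.11 and -0.06 in BY4716 and 1.61 and 1.78 in RM11. That was a difference of 1.78 (SE 0.09, limma adjusted p = 0.000307), a fold of 3.43. MCR1 (YKL150W), a mitochondrial NADH-dependent reductase of that cytochrome, stood at 0.03 and 0.10 against 1.47 and 1.35, a difference of 1.35 (SE 0.09, limma adjusted p = 0.000541). NCP1, the NADPH-dependent reductase that serves Erg11 and Erg1, stood at -0.19 and -0.08 against -0.35 and -0.36, a difference of -0.22 (SE 0.08) that did not pass (limma adjusted p = 0.114). Its RM11 cultures lay below its BY4716 cultures, whereas those of ERG11 and ERG1 lay above.

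The sterol acyltransferases, which esterify sterols for storage, went opposite ways. ARE1 (YCR048W) stood at 0.08 and 0.14 in BY4716 and at -0.40 and -0.23 in RM11, a difference of -0.42 (SE 0.09, limma adjusted p = 0.0293). ARE2 (YNR019W), outside that test, stood at -0.45 and -0.32 in BY4716 and at 1.14 and 0.96 in RM11, and the fit with fewer arrays required gave a difference of 1.44 (SE 0.11, limma adjusted p = 0.00217). With Cy5-titled arrays alone ARE2 was called and ARE1 was not, beside 21.8% of all genes called. On those arrays ARE1 stood at 0.04 and 0.17 in BY4716 and at -0.45 and -0.07 in RM11.

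The regulator transcripts were not higher in RM11. UPC2 (YDR213W) stood at -0.07 and -0.14 in BY4716 and at -0.55 and -0.45 in RM11, and ECM22 (YLR228C) at 0.10 and 0.06 against -0.08 and -0.26. In the fit with fewer arrays required, UPC2 was lower in RM11 by a log2 difference of -0.39 (SE 0.09, limma adjusted p = 0.0448). ECM22 differed by -0.25 (SE 0.10, limma adjusted p = 0.143). For ECM22 the BY4716 values came from Cy5-titled arrays alone and the RM11 values from both dye orientations, so this difference is not balanced by dye. With Cy5-titled arrays alone ECM22 was called as lower in RM11 and UPC2 was not called, beside 21.8% of all genes called. The fit with fewer arrays required covered all 30 pathway genes and gave 20 higher and 2 lower in RM11, beside 18.3% of all genes called in either direction. Leaving out BY4716 culture 1 or culture 2 left 6 genes called, which were CYB5, ERG5, ERG11, ERG28, ERG9 and MCR1 each time, beside 5.91% and 5.61% of all genes. With 2 cultures a strain, the precision rests on few replicates.

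The next question was how the transcripts varied over the 86 segregants. Most varied beyond the spread between cultures of a parent. The variance over segregants exceeded the error variance, by a one-sided F test with the limma-moderated error and an adjusted p under 0.05, for 20 of 24 pathway genes, beside 58.6% of all 3255 genes tested. The 4 that did not pass were ERG1, ERG24, ERG3 and ERG4. The median SD over segregants was 0.35 for the tested pathway genes and 0.25 for all genes, with median error SDs of 0.09 for both. ERG3, which did not pass, had a larger segregant SD of 0.45 but also a larger error SD of 0.26.

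CYB5 had the largest SD, 0.71, with segregants from -0.60 through a median of 0.49 to 2.14. ERG28 followed with an SD of 0.64, from -0.23 through 0.80 to 2.30, and MCR1 had 0.60, from -0.88 through 0.47 to 1.69. Outside the test, ARE2 had an SD of 0.63 and HMG1 one of 0.62. At the other end ERG1 (0.22), ERG24 (0.22), HMG2 (0.22) and ECM22 (0.24) spread least. The error rests on 4 parental cultures: without BY4716 culture 1 the count was 3 of 24 (CYB5, ERG28 and MCR1), beside 4.73% of all genes, and without BY4716 culture 2 it was 1 of 25 (CYB5), beside 3.96%. Without RM11 culture 1 or culture 2 every pathway gene tested passed, as did 3333 of 3333 and 3730 of 3731 of all genes, so those settings separate nothing.

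**Figure D2:**
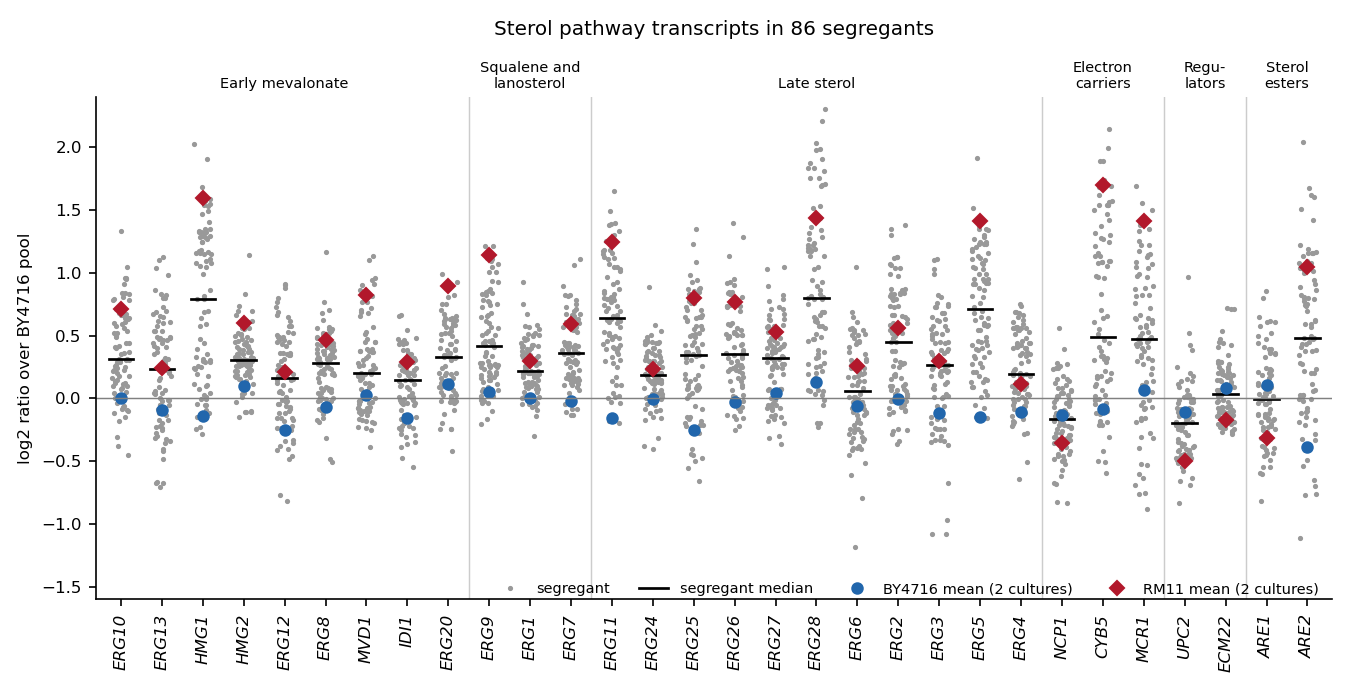
Log2 ratio over the BY4716 pool (vertical axis) of each pathway transcript (horizontal axis) in the 86 segregants (grey points, spread sideways at random), with the segregant median (bar) and the means of the 2 BY4716 and the 2 RM11 cultures. CYB5, ERG28, ARE2, HMG1 and MCR1 spread widest, with SDs of 0.71, 0.64, 0.63, 0.62 and 0.60, and the points of HMG1 fall into an upper and a lower group.

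Some genes with a smaller parental difference had many segregants outside the parental range, which is narrower for such genes by construction. These counts were not summarised over all genes. Counting segregants more than 2 error SDs beyond both parental means, ERG13 had 29 above and 11 below and ERG6 had 16 above and 19 below. ERG4 had 28 above and 2 below, and ERG12 had 24 above and 4 below. ERG24 had fewer, with 13 above and 3 below, as did ERG3, with 4 above and 4 below. The error SD of ERG3 was 0.26, so its bounds of 2 error SDs lay farther out than those of the other genes named here. Of the genes with large parental differences, ERG11 had 2 above and 0 below, ERG5 had 1 above and 0 below, and ERG9 had 0 above and 2 below. ERG28, with 15 above and 3 below, and MCR1, with 1 above and 16 below, had more.

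For most pathway genes no departure of the segregant mean from the middle between the parental means was detected, which does not show that they were close. By a moderated test of the segregant mean against the parental midpoint, 0 of 24 were called above it and 2 below, beside 3.63% above and 6.3% below among all genes tested. At an unadjusted p under 0.05, 2 lay above (ERG12 and ERG4). The ERG4 segregant mean of 0.23 lay above both parental means, -0.11 in BY4716 and 0.11 in RM11. The 2 genes called below were MCR1, by a difference of -0.29 (SE 0.08, adjusted p = 0.0107 with the limma-moderated error), and ERG20, by -0.19 (SE 0.05, adjusted p = 0.0315 with the same error). These calls depended on the scale: after quantile normalization 8 genes lay above the midpoint (ERG11, ERG12, ERG13, ERG25, ERG28, ERG4, ERG5 and ERG7) and 0 below. The quantile setting called 25.5% of all genes. Without RM11 culture 2 there were 12 calls in 25 pathway genes, beside 42.3% of all genes, and without BY4716 culture 1 or culture 2 there were 0, beside 1.55% and 1.49%.

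HMG1 was the only pathway gene whose segregants were called as falling into 2 clusters. The rule asked that a normal mixture with 2 components be favoured by a BIC gain over 10, with means over 4 component SDs apart and at least 20% of segregants in the smaller cluster, and 1.22% of 5567 genes met it. In HMG1, 42 segregants lay in the lower cluster, with a mean of 0.17, and 44 in the upper one, with a mean of 1.27 (separation 4.16 SDs, BIC gain 25.8). The BY4716 mean was -0.14 and the RM11 mean 1.60. CYB5 came next and was just outside the rule, with 49 and 37 segregants and a separation of 3.85 SDs. With either dye orientation alone HMG1 was not called.

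HAP1 is not one of the 30 genes, and was used as a predictor because its protein regulates sterol genes. The ratio stands for the HAP1 transcript alone, and the amount and activity of the Hap1 protein were not measured here. The HAP1 transcript was low in RM11, with ratios of 0.22 and 0.07 in BY4716 and -1.62 and -1.97 in RM11, a difference of -1.94 (SE 0.14, limma adjusted p = 0.000789). The segregants ranged from -1.56 through a median of -0.52 to 0.78. Over the segregants, limma regression on the HAP1 ratio called 23 of the 30 pathway genes as higher where HAP1 was lower, and 3 as higher where HAP1 was higher. Among all 5566 genes tested, 15.9% had a negative and 11.2% a positive association.

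The negative associations covered 8 of 9 early genes, 2 of 3 squalene and lanosterol genes, 10 of 11 late genes, 2 of 3 electron carriers and ARE2. The steepest were CYB5, which changed by -0.97 per unit of HAP1 ratio (SE 0.10, r = -0.71, limma adjusted p = 1.16e-11), and HMG1, by -0.88 (SE 0.09, r = -0.74, limma adjusted p = 1.67e-12). By size of r, these were followed by ERG5 (r = -0.69), ERG25 (r = -0.69), IDI1 (r = -0.65) and ERG20 (r = -0.60). HMG1 was pooled over its 2 clusters in this regression. The 4 genes that did not pass were HMG2 (r = -0.02), ERG1 (r = 0.07), ERG4 (r = -0.11) and NCP1 (r = -0.21). The 3 positive ones were ECM22 (r = 0.56), UPC2 (r = 0.48) and ARE1 (r = 0.45). The median r was -0.47 over the pathway genes and -0.01 over all genes.

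**Figure D3:**
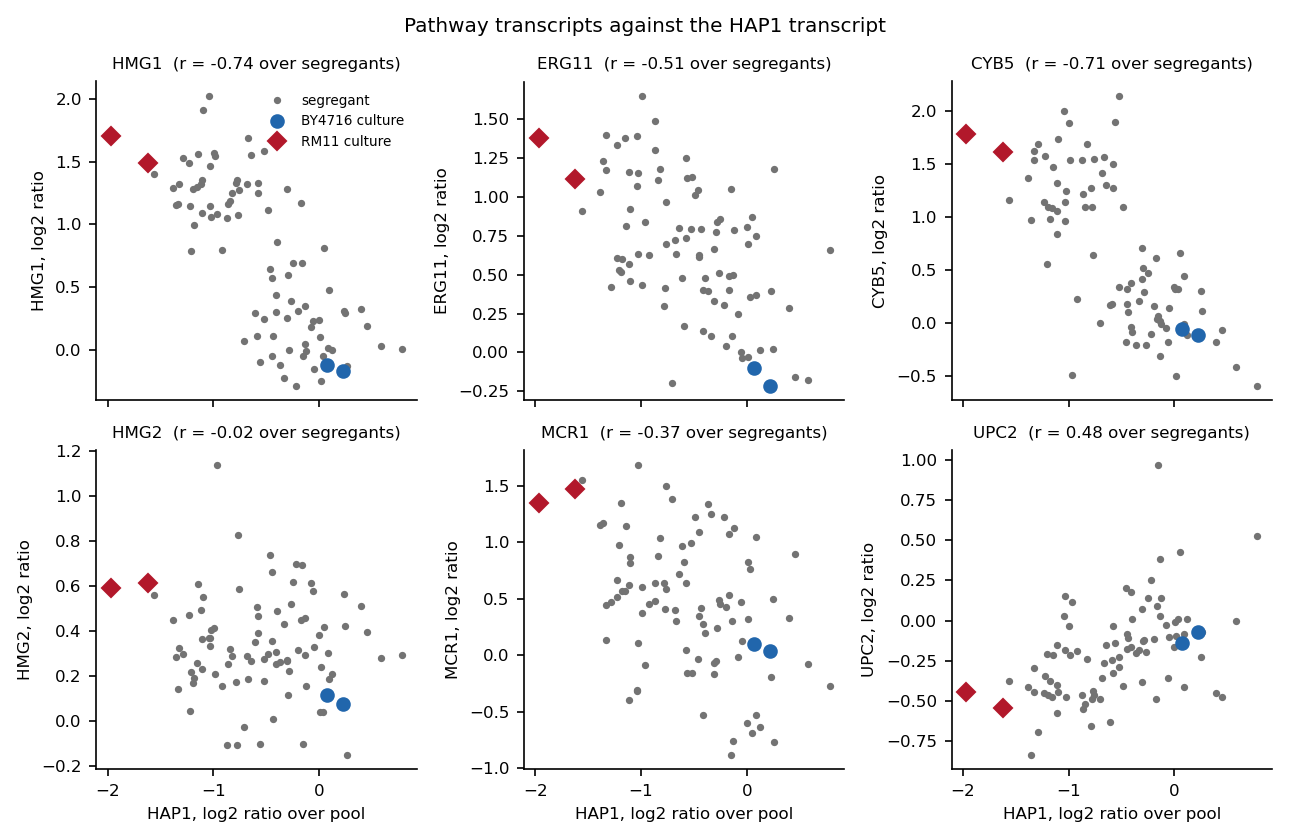
Log2 ratios of HMG1, ERG11, CYB5, HMG2, MCR1 and UPC2 (vertical axes) against that of HAP1 (horizontal axes) in the 86 segregants (grey), the 2 BY4716 cultures (blue) and the 2 RM11 cultures (red), all over the same pool. HMG1 and CYB5 fall with rising HAP1 (r = -0.74 and -0.71 over segregants), HMG2 is nearly flat (r = -0.02) and UPC2 rises (r = 0.48).

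The parental and segregant results can be set side by side, although all ratios share 1 reference pool. Of the 16 pathway genes higher in RM11, 15 were negative with HAP1, the exception being HMG2. Of the 23 genes negative with HAP1, 19 had been tested between the parents and 15 of these were higher in RM11. The same overlap was not counted over all genes, so it cannot be called particular to the pathway. With UPC2 and ECM22 as covariates, a setting chosen after seeing the data, 22 of the remaining 28 genes were negative and 0 positive by limma. Also 0 were positive at an unadjusted p under 0.05, and 28.5% of all genes were called in either direction. ARE1 (limma adjusted p = 0.232), ERG8 (limma adjusted p = 0.0697) and MCR1 (limma adjusted p = 0.963) were no longer called, while NCP1 became so (limma adjusted p = 0.0295). With HAP1 read from the arrays of one dye orientation and the other genes from the other, 22 of 30 were called, 19 of them negative. In that setting 14.9% of all genes were called.

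The transcripts of the sterol regulators had fewer associations by count than HAP1, a contrast that was not tested. On UPC2, 7 of 29 other pathway genes were negative and 2 positive, beside 8.62% and 8.93% of all genes tested. On ECM22 the counts were also 7 and 2 of 29, beside 7.91% and 8.8%. MCR1 (r = -0.57 with UPC2 and -0.52 with ECM22) and ERG5 (r = -0.53 and -0.50) stood lowest with both. ERG20, CYB5, HMG1 and IDI1 were also negative with both, ERG9 was called with UPC2 alone and ERG25 with ECM22 alone, and whether those associations differed was not tested. With the first number of the segregant titles as a block, ERG9 and IDI1 were no longer called with UPC2. With the same block ERG20, HMG1, IDI1, ERG25 and ARE1 were no longer called with ECM22, which left CYB5, ERG5, MCR1 and UPC2.

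**Figure D4:**
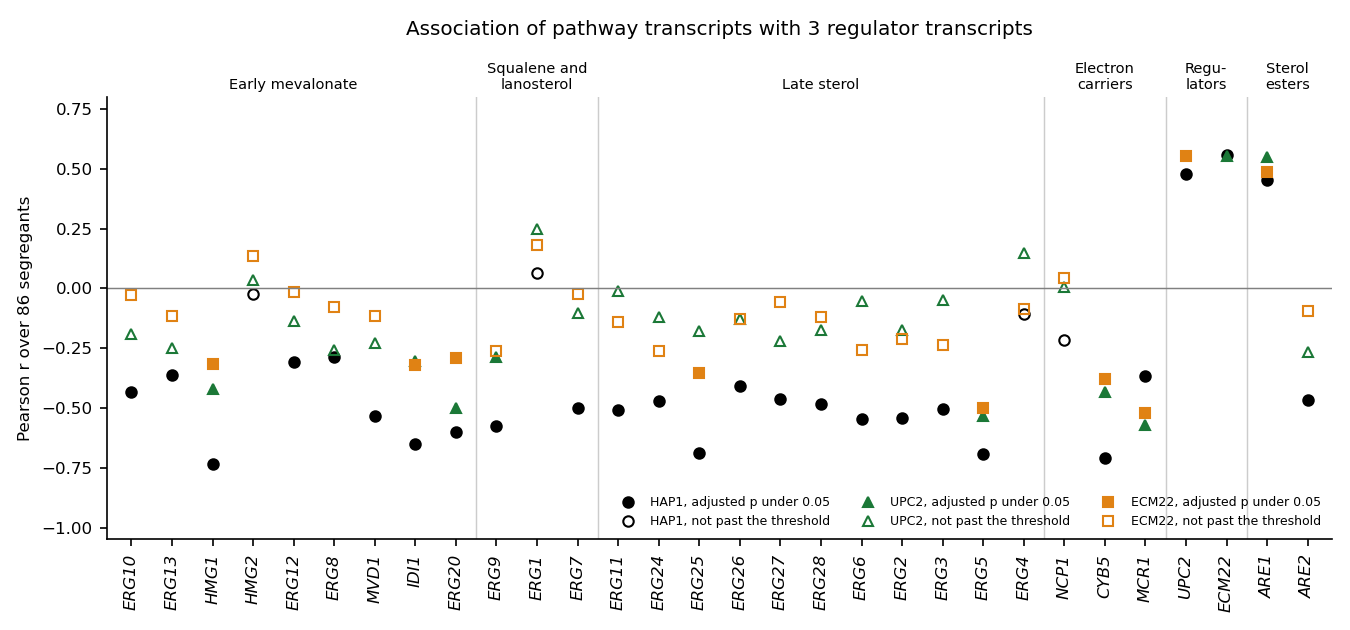
Pearson r over the 86 segregants (vertical axis) of each pathway transcript (horizontal axis) with HAP1 (circles), UPC2 (triangles) and ECM22 (squares), filled where the limma regression passed at an adjusted p under 0.05. HAP1 is negative for 23 genes, against 7 each for UPC2 and ECM22, and ARE1 is positive with each of the 3.

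ARE1, the esterification gene that was lower in RM11, rose with UPC2 (r = 0.55) and with ECM22 (r = 0.49). UPC2 and ECM22 rose together (r = 0.55, rho = 0.53, adjusted permutation p = 2.67e-05 for each). That is 1 of 8 pairs tested, and its unadjusted p of 1e-05 is the smallest that 100000 permutations can give. Without the 2 segregants farthest from the median of UPC2, r was 0.47.

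With HAP1 as a covariate, a setting chosen after seeing the data, 7 of 29 pathway genes were called with UPC2, beside 28.2% of all genes. The pathway was thus not called more often than all genes. The slopes of 14 genes changed sign, and of these ERG11 and ERG6 were called. Some of the changed slopes were slight, such as 0.002 for ERG27 and 0.02 for ERG12. Sign changes were not counted over all genes. ERG11, which had a slope of -0.02 on UPC2 alone, had one of 0.45 (SE 0.15, limma adjusted p = 0.0184), and ERG6 had 0.35 (SE 0.13, limma adjusted p = 0.0332). MCR1 stayed negative at -1.07 (SE 0.21, limma adjusted p = 9.67e-05), as did ERG5 at -0.42 (SE 0.13, limma adjusted p = 0.0144) and ERG20 at -0.30 (SE 0.10, limma adjusted p = 0.0203). No longer called were CYB5, with a slope of -0.31 (limma adjusted p = 0.279), HMG1 with -0.19 (limma adjusted p = 0.441), ERG9 with -0.02 (limma adjusted p = 0.932) and IDI1 with 0.01 (limma adjusted p = 0.959). On ECM22 with HAP1 as a covariate 4 genes were called, beside 7.85% of all genes: UPC2, ARE1 and ERG7, which were positive, and MCR1, which was negative. ECM22 and HAP1 lie on the same chromosome, XII, 26 genes apart in the gene table, and the part of linkage in their association was not tested.

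The first principal component of all genes, which held 20.4% of the variance over segregants, moved with these counts. Its r with pathway genes ran from -0.66 for MCR1 to 0.55 for ERG7. With it as a covariate, 17 pathway genes were associated with UPC2 (15 negative), beside 16.8% of all genes, and 14 with ECM22 (12 negative), beside 28%. Without that covariate, 17.6% and 16.7% of all genes were associated.

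The last question was how far the pathway varied together. Over the segregants, the 435 pairs of pathway genes had a median r of 0.43, from -0.57 to 0.81, and 340 were positive. All pairs of genes had a median r of -0.0004. Early mevalonate genes correlated among themselves with a median r of 0.57 and late sterol genes with 0.55, and early with late genes with 0.54, so the early and late steps went together nearly as closely as the genes within each. All 55 pairs of late genes were positive. These values are descriptions, since both genes of a pair were read from the same arrays. With each gene of a pair read from a different dye orientation the medians were 0.44 for early, 0.52 for late and 0.45 for early with late genes.

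**Figure D5:**
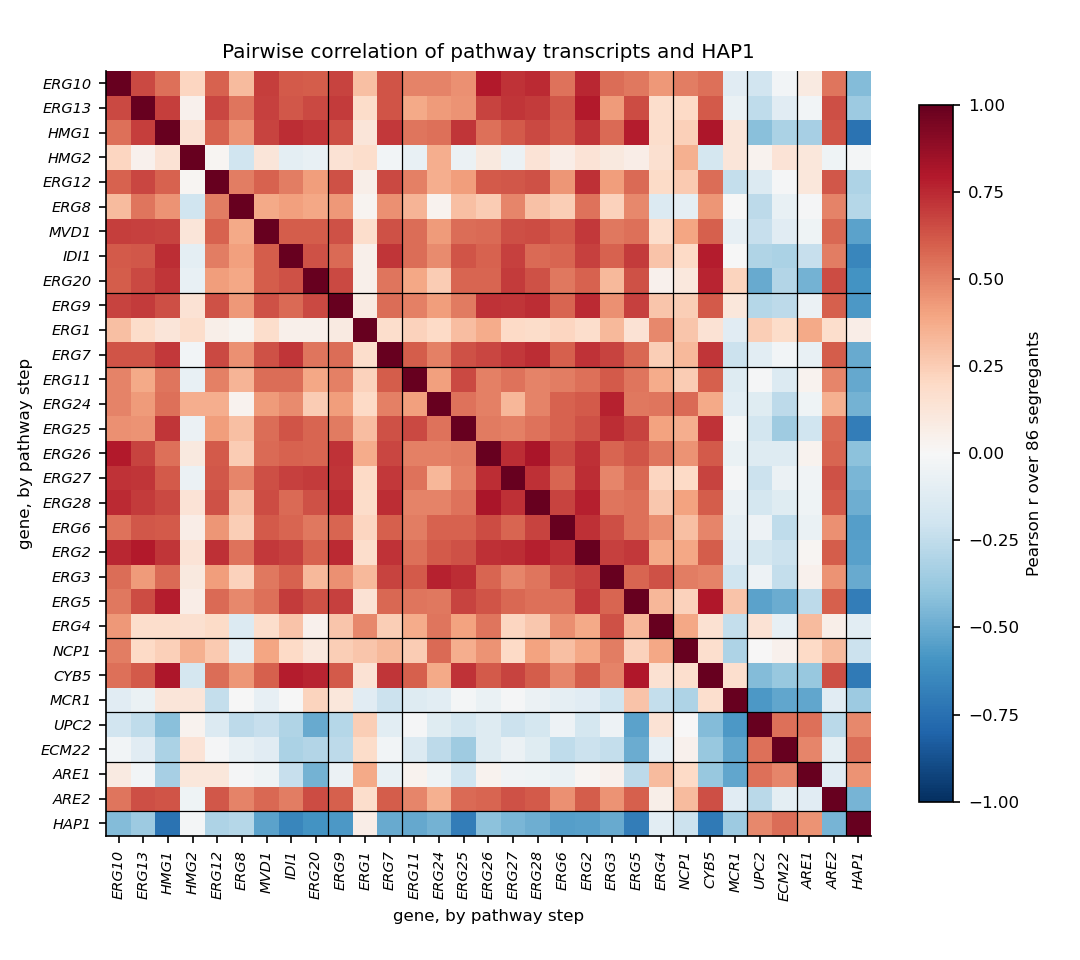
Pearson r over the 86 segregants (colour) between each pair of the 30 pathway transcripts and HAP1 (both axes, by pathway step, with lines between steps). Early and late genes form a red block with a median r of 0.54 between them, and HMG2, ERG1, MCR1, UPC2, ECM22 and ARE1 stand outside it.

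The closest pairs were ERG26 with ERG28 (r = 0.81), HMG1 with CYB5 (r = 0.81), ERG5 with CYB5 (r = 0.80) and ERG13 with ERG2 (r = 0.79). ERG2 had the highest mean r with the other pathway genes, 0.52, followed by ERG26 (0.48) and ERG28 (0.48). The lowest were UPC2 (-0.14), ECM22 (-0.12), MCR1 (-0.10), ARE1 (-0.02) and HMG2 (0.07). The regulators had a median r of -0.21 with early and -0.16 with late genes.

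After regression on HAP1, with that choice made after seeing the data, the median r was 0.32 over all pathway pairs, 0.43 among early genes, 0.40 among late genes and 0.36 between them. After regression on the first principal component it was 0.39 over all pathway pairs.

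Over all segregants, no correlation passed for the pairs of isozymes. HMG1 and HMG2 had r = 0.15 over all segregants (rho = 0.14, adjusted permutation p = 0.2 and 0.204). ARE1 and ARE2 had r = -0.11 (rho = -0.16, adjusted permutation p = 0.296 and 0.175).

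The electron carriers were also tested against each other and against an enzyme they serve. CYB5 and MCR1, cytochrome and reductase, had r = 0.17 (rho = 0.16, adjusted permutation p = 0.168 and 0.175), although both were among the largest parental differences. Without the 2 segregants farthest from the median of CYB5 it was 0.24 and passed (adjusted permutation p = 0.0429). NCP1 and ERG11 had r = 0.25 (rho = 0.22, adjusted permutation p = 0.0288 and 0.0627), and with the first number of the segregant titles as a block r was 0.27 and did not pass (adjusted permutation p = 0.0574). The title numbers took 18 values, whose meaning is not given in the sources used here.

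ERG13 and ERG11, taken as an early and a late gene, had r = 0.38 (rho = 0.36, adjusted permutation p = 0.00068 and 0.0018), with 0.37 without the 2 farthest segregants and 0.44 with that block. HAP1 and ERG11 had r = -0.51 (rho = -0.50), and HAP1 and CYB5 had r = -0.71 (rho = -0.70), with adjusted permutation p = 2.67e-05 for each. With the block they were -0.60 and -0.72.

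Outside the 30 genes, the transcripts most like the mean of the scaled pathway genes were named as a description, with n between 82 and 86 segregants. ACS2, which encodes an acetyl-CoA synthetase, was the closest (r = 0.84), followed by MSC7 (0.78), MTC7 (0.76), YEH1, a steryl ester hydrolase (0.75), and HYP2, a translation factor (0.75). ANB1, the paralog of HYP2 expressed under low oxygen, had 0.73, HMX1, a heme oxygenase, 0.69, FTR1, an iron permease, 0.68, and YDL086W and YGR266W 0.68 each. MTC7 (YEL033W) and HYP2 (YEL034W) are neighbours by systematic name, and HYP2 and ANB1 are near-identical copies, so their signals may be shared.

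Related lists held fewer tested genes than the pathway, so their counts cannot be set directly against its counts, and no contrast was tested. Among all genes tested, 18.2% were higher and 8.54% lower in RM11. Among 5 tested regulators of sterol, heme and oxygen response, SPT23 was higher in RM11 (0.32) and HAP1 (-1.94) and MGA2 (-0.48) were lower. Among 10 tested genes of sterol transport, hydrolysis and modification, NPC2 (0.47) and OSH7 (0.36) were higher and PDR11 (-0.44) was lower. Of 6 genes of isoprenoid branches and 4 of reductase turnover, 0 passed the limma test, with 2 (COQ1 and RAM2) and 1 (NSG1) at an unadjusted p under 0.05. With HAP1 the negative and positive counts were 3 and 1 of 7 genes of the regulator list and 0 and 1 of 11 branch genes (0 negative also at an unadjusted p under 0.05). They were 1 and 2 of 6 turnover genes and 3 and 5 of 18 transport genes, beside 15.9% and 11.2% of all genes. Among the 3 negative genes of the regulator list was OLE1 (r = -0.59), which encodes a fatty acid desaturase and not a regulator.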

How the data were processed

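The deposited values are log2 ratios of culture over pool, as read here: per the labels each array compared a culture with a BY4716 pool, and the base of the logarithm is not given in the sources used here. The authors had already centred every array on a mean of 0 (medians -0.063 to 0.074) and turned both dye orientations the same way, as the values show. Scanner, background correction and dye normalization are not given in the sources used here. Of 7085 probes, 5645 had 1 gene symbol, giving 5605 genes (40 with 2 probes, averaged). A ratio measures hybridisation to the probe, signal intensities were not used here, and the number of arrays limits the precision.

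Parents were compared with limma 3.58.1 in R 4.3.3 on 4 cultures, keeping genes that had values on each of the 8 parental arrays. Segregant tests used genes with values in at least 80% of segregants and the moderated parental error (5.28 degrees of freedom). Regressions used limma, mixtures mclust 6.1.1, and correlations 100000 two-sided permutations (numpy 2.4.6). Each step was tested on simulated data. Adjusted p-values are Benjamini-Hochberg over all genes tested, or over the 8 pairs.

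All 30 pathway genes and HAP1 are named. So are the 10 genes most like the pathway mean, up to 2 highest and 2 lowest called genes per related list, and OLE1. The genes, lists and tests were chosen with earlier results of these data known. The numbers of the parental cultures were checked for pairing: deviations of same-numbered cultures correlated at 0.20 in 1 pair of strains, and the labels give the numbers no shared origin. Alternatives covered quantile normalization, median centring, 1 dye alone, cultures left out, filters, blocks and covariates. Names came from the array annotation and the RefSeq R64 gene table.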

Additional observations from a re-analysis of the deposited data

How the results depend on the processing

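Between the parents, 17 pathway genes were called, and leaving out 1 culture gave 6 to 23 (5.61% to 53.9% of all genes). Median centring gave 17 calls (24.5% of all genes) with the all-gene median difference at 0.06 in place of 0.10. Quantile normalization gave 16 (23% of all genes), where ERG27 (0.32) was no longer called. With culture number as a replicate block 17 were called (25.5% of all genes). The variance count of 20 became 12 with Cy3-titled arrays alone (19% of all genes) and 1 to 25 without 1 culture, where 3.96% of all genes to 3333 of 3333 passed. The midpoint count of 2 became 8 after quantile normalization (25.5% of all genes), 1 with Cy3-titled arrays alone (8.37%) and 0 to 12 without 1 culture (1.49% to 42.3%). The HAP1 count of 26 stayed within 1.5 times under 8 alternatives, where 14.9% to 29.3% of all genes were called. The UPC2 count of 9 became 17 with the first principal component as a covariate (16.8% of all genes). The ECM22 count of 9 became 14 with that covariate (28% of all genes) and 4 with predictor and genes from different dyes (5.24%). It was also 4 with the title number as a block (9.4%) and 4 with HAP1 as a covariate (7.85%). HMG1 was the only pathway gene in 2 clusters, and 0 pathway genes were called with Cy3-titled or Cy5-titled arrays alone (0.94% and 1.13% of all genes). The r of NCP1 and ERG11 was 0.22 after median centring and 0.22 with Cy3-titled arrays alone, and 0.27 with the title number as a block, and passed in none of these. The r of CYB5 and MCR1 was 0.24 and passed without 2 segregants. The cause of these changes was not tested. With 2 cultures a strain, the number of cultures limits which small differences can be detected.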
